A study of Mus musculus with 30 samples.

Results

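The subunits of the mitochondrial respiratory chain and ATP synthase that are encoded in the nucleus were described in haematopoietic stem cells (HSCs), the bone marrow cells that renew blood. Members were the genes whose symbols carry the mouse subunit names (Nduf, Sdh, Uqcr, Cox and Atp5, each with its subunit letter or number) and whose mean over all libraries was at least 100 normalized counts. Of 82 genes with such names, 75 qualified, out of 35727 genes in the table. They were 36 genes named for complex I, 4 for complex II, 8 for complex III, 10 for complex IV and 17 for complex V. The member with the lowest mean was Cox6b2 at 425 normalized counts, and the highest gene left out was Cox7a1 at 8.35. The 7 genes left out were Cox6a2, Cox7a1, Cox7b2, Cox8b, Cox8c, a second and low Atp5o entry, and Cox6c2, which is annotated as a pseudogene. No measured difference between groups was used to choose the genes, and all 75 passed the filter of the test.

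Mice of 3 kinds were compared in 30 RNA-seq libraries. The wild type (WT) was represented by 4 young libraries (2 months), 5 middle-aged (1 year) and 4 old (2 years). Libraries labelled as a knockout of Il1r1, the type 1 receptor of interleukin-1 (IL1R1 KO), numbered 3, 4 and 5 in that order of age. Mice with a germ-free bowel gave 3 young and 2 middle-aged libraries, and no group is labelled with a treatment. One middle-aged IL1R1 KO library, replicate 1, is 1 year old by its title and 2 months old by its age label, and was used by its title. The design text counts 30 mice, but no label ties a library to an animal, so each p reflects no more than the scatter among libraries, which may be technical. Each library came from 4000 to 5000 sorted cells amplified by the full-length Smart-seq2 method. By its title, the series asks how interleukin-1 and the microbiome bear on the ageing of HSCs.

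The respiratory chain passes electrons from NADH (through complex I) and succinate (through complex II) to ubiquinone, on to cytochrome c through complex III, and to oxygen through complex IV. Complexes I, III and IV pump protons, and the ATP synthase (complex V) uses the gradient to make ATP. A few subunits of complexes I, III, IV and V are encoded by mitochondrial DNA and the rest by nuclear genes on many chromosomes. These complexes are thus built from both genomes, and complex II from nuclear genes alone. HSCs at rest are known to rely more on glycolysis and to raise oxidative phosphorylation when they enter the cell cycle and differentiate.

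The libraries had an estimated depth of 15.6 to 56.3 M reads, and depth moved with some groups. The estimate takes the most frequent value above 0 in a library as 1 read. Only 9.64 to 18.5% of low values were whole multiples of it, so the depths are uncertain. The young WT libraries had 20.0 to 29.5 M, the middle-aged WT libraries 32.6 to 56.3 M and the middle-aged germ-free libraries 15.6 to 23.9 M, without overlap between WT at 1 year and either of the others, and its part in these comparisons was not tested. All 12 HSC markers examined, among them Procr, Slamf1, Hlf and Mecom, were detected in every library, with Procr between 3209.9 and 7216 normalized counts. Il1r1 itself was not lower in the libraries labelled IL1R1 KO (186 to 409 normalized counts) than in WT libraries (137 to 383), so that label could not be checked on this gene. At 2 months the groups were not uniform: Mpo, a gene of primary granules in myeloid progenitors, was at 392 and 1159 normalized counts in WT replicates 1 and 3 and at 73276 and 60867 in replicates 2 and 4. IL1R1 KO replicates 1 and 3 and germ-free replicates 1 and 3 of that age were also above 10000. Counts of called members, their medians and the main list results are also given without these 2-month libraries. WT 2-year replicates 1 and 4 (11719 and 16541 normalized counts) and IL1R1 KO 1-year replicate 2 (12930) were also above 10000 and were kept.

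The promoters of the subunit genes were read from RefSeq (GRCm38.p6), where 64 of the 75 genes had an entry. In windows from 250 bases before to 50 bases after the start site, 3 motifs of regulators known for nuclear mitochondrial genes were searched on both strands. The NRF1 motif CGCATGC was found in 15.6% of the 64 windows and in 4.86% of 15581 windows of other protein-coding genes. The ETS motif CCGGAAG, bound by GABPA, was found in 15 of the 64 against 2023 of 15581, and the YY1 motif AAGATGG in 10 against 1012. At least 1 of the 3 was present in 46.9% of member windows and 22.1% of the others. NRF1 and ETS matches stood together in 5 of 64 member windows (7.81%) and in 0.924% of the others. Among the 20 genes with a window that fell in WT mice at 1 year, 2 had the NRF1 motif, 4 the ETS motif and 5 the YY1 motif. Among the 44 that did not, the counts were 8, 11 and 5. A match of letters is a description and not a measured binding site.

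The 150 bases directly before the RefSeq start site are shown for 8 genes. Motif matches are in capitals (overlapping NRF1 matches on both strands form a run of 8 letters). By the bounds of the GENCODE M21 annotation, the Ndufa3 stretch alone lies wholly outside its gene, and that of Atp5g2 lies wholly inside. The first 4 genes had large falls in WT mice at 1 year or, in Sdha, the opposite sign. The searched windows, which are wider, held a YY1 match outside the bases shown in Ndufa3 and Cox7c. They lie at chr7:3617223-3617372 on the plus strand (Ndufa3) and on the minus strand at chr13:86046796-86046945 (Cox7c), chr15:102671048-102671197 (Atp5g2) and chr13:74350241-74350390 (Sdha).
Ndufa3: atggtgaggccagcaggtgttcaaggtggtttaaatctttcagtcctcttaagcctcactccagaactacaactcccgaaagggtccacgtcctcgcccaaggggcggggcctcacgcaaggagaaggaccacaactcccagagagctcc
Cox7c: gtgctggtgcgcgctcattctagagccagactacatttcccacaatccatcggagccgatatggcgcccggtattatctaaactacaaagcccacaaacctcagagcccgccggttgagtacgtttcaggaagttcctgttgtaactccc
Atp5g2: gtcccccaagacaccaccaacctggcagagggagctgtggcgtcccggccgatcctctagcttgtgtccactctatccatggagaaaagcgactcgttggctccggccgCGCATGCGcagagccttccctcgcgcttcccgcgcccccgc
Sdha: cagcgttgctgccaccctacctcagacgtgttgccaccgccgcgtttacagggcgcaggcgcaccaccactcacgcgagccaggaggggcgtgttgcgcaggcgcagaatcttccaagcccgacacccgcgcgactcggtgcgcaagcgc

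The other 4 are genes of different complexes whose wider window held both an NRF1 and an ETS match, of which the 150 bases show 1 of the pair. They lie on the plus strand at chr4:140961121-140961270 (Sdhb) and on the minus strand at chr10:80406822-80406971 (Uqcr11), chr5:115348959-115349108 (Cox6a1) and chr5:108434400-108434549 (Atp5k).
Sdhb: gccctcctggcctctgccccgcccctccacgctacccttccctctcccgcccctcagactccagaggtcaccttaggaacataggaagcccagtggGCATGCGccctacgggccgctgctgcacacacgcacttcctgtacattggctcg
Uqcr11: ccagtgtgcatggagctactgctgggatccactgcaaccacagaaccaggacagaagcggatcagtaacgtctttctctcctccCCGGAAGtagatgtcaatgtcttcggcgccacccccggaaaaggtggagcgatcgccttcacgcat
Cox6a1: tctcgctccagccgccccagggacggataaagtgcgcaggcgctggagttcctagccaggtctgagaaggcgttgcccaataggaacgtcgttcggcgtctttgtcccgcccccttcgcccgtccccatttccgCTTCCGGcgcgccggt
Atp5k: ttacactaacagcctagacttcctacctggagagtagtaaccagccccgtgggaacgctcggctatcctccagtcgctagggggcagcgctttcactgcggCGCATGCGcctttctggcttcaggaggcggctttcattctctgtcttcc

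All 5 complexes were well expressed in HSCs. Per kilobase of the principal transcript and over all 30 libraries, Atp5b, the catalytic beta subunit of ATP synthase, had the highest level at 18422 normalized counts per kb. Cox8a, a small membrane subunit of complex IV, followed at 11174, and Atp5a1, the alpha subunit, at 10485. Subunits of one complex are assembled in fixed ratios, but their transcript levels per kb spanned a wide range. Complex I genes lay between 301 (Ndufb2) and 6221 (Ndufa4) with a median of 2333 normalized counts per kb. Complex II ran from 756 in Sdhc, a membrane anchor, to 6369 in Sdha, the catalytic flavoprotein. Medians were 4382 for complex III, 3641 for complex IV and 4589 for complex V. The levels of Ndufb2 and Atp5g1 (734 per kb) depend on principal transcripts of 4371 and 4715 bp, which are long for their families.

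Across the 8 groups, the 2-month groups held most of the highest means. The highest mean lay in IL1R1 KO at 2 months for 32 members, in WT at 2 months for 22 and in germ-free mice at 2 months for 10, with 9 in germ-free mice at 1 year. WT at 1 year gave the lowest mean for 37 members and germ-free at 1 year for 16. For 26 of 75 members the 3 groups of 2 months were the 3 highest. Without the 2-month libraries of high Mpo this held for 12 members. IL1R1 KO and germ-free mice of 2 months were then represented by replicate 2 alone, and WT by replicates 1 and 3. The highest mean lay in IL1R1 KO at 2 months for 9 members, in WT for 14 and in germ-free mice of that age for 31. Germ-free mice of 1 year held 13, and WT at 1 year was lowest for 32. The differences between neighbouring groups in this order were not tested. The mean log2 level over all members was 11.61, 11.64, 11.44 and 11.66 in the WT libraries at 2 months and 11.36, 11.42, 11.28, 11.31 and 11.20 at 1 year. The 1-year libraries were thus all below the 2-month libraries. WT libraries at 2 years were at 11.42, 11.50, 11.28 and 11.37 and overlapped both younger groups.

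**Figure D1:**
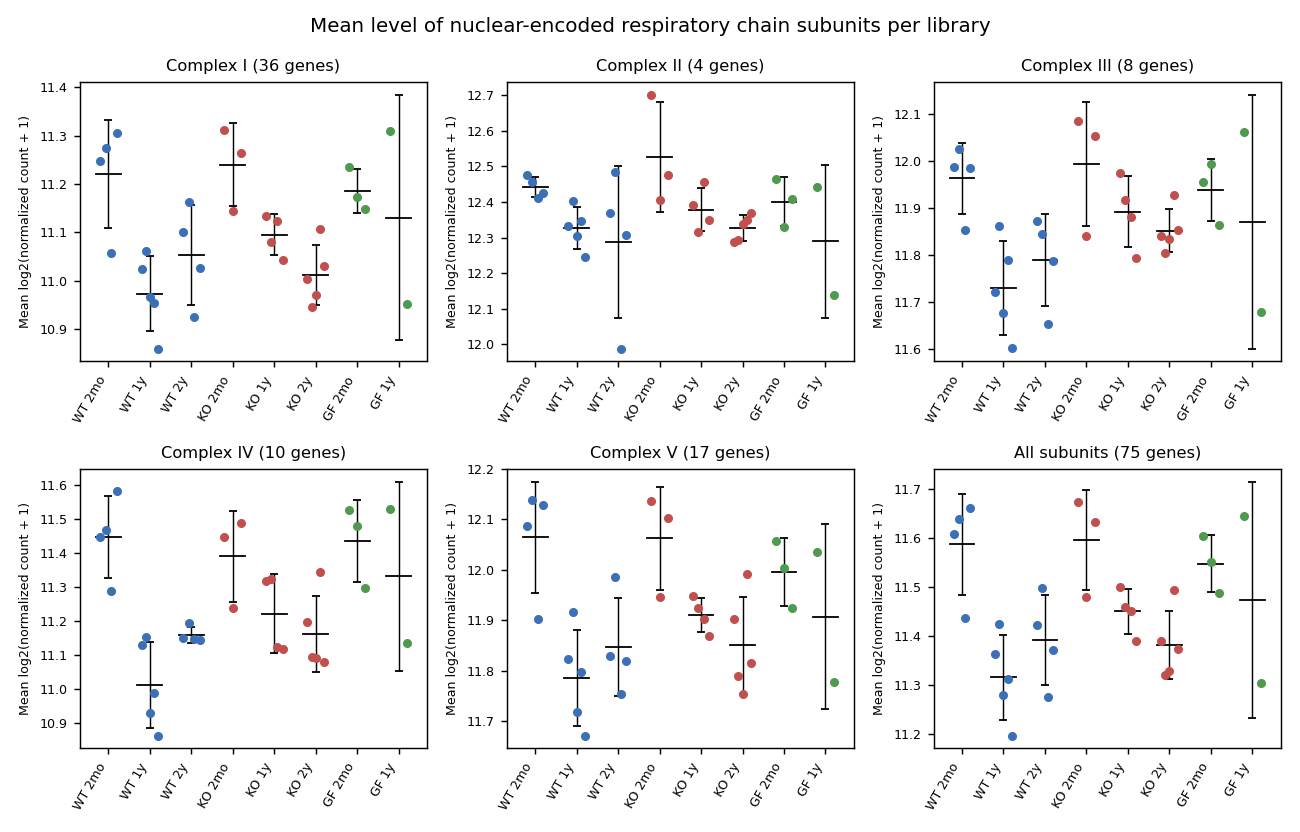
Mean log2(normalized count + 1) over the subunit genes of each complex and over all 75 (vertical axes, 1 point per library) in the 8 groups, with the group mean (line) and SD (bars). WT at 1 year is low for complex IV, at 10.86 to 11.15 against 11.29 to 11.58 in WT at 2 months, and the 2 germ-free libraries of 1 year stand far apart.

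In WT HSCs, 24 of the 75 subunit genes fell between 2 months and 1 year and none rose. Over all 16958 genes tested, 4.61% were lower and 6.12% higher in this comparison. The fall was modest in size: the median log2 difference of the members was -0.25, beside 0.01 over all tested genes, and 71 of 75 differences were negative. In 17 members every 1-year library was below every 2-month library, against 5.62% of all genes, and in 1 member, Sdha, every 1-year library was above, against 6.89% of all genes. Calls were unevenly spread over the complexes, with 9 of 36 genes of complex I, 1 of 4 of complex II, 2 of 8 of complex III, 8 of 10 of complex IV and 4 of 17 of complex V. These counts are descriptions, and a difference between complexes was not tested. In sorted bulk samples, fewer cells of a type and less RNA per cell cannot be told apart.

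**Figure D2:**
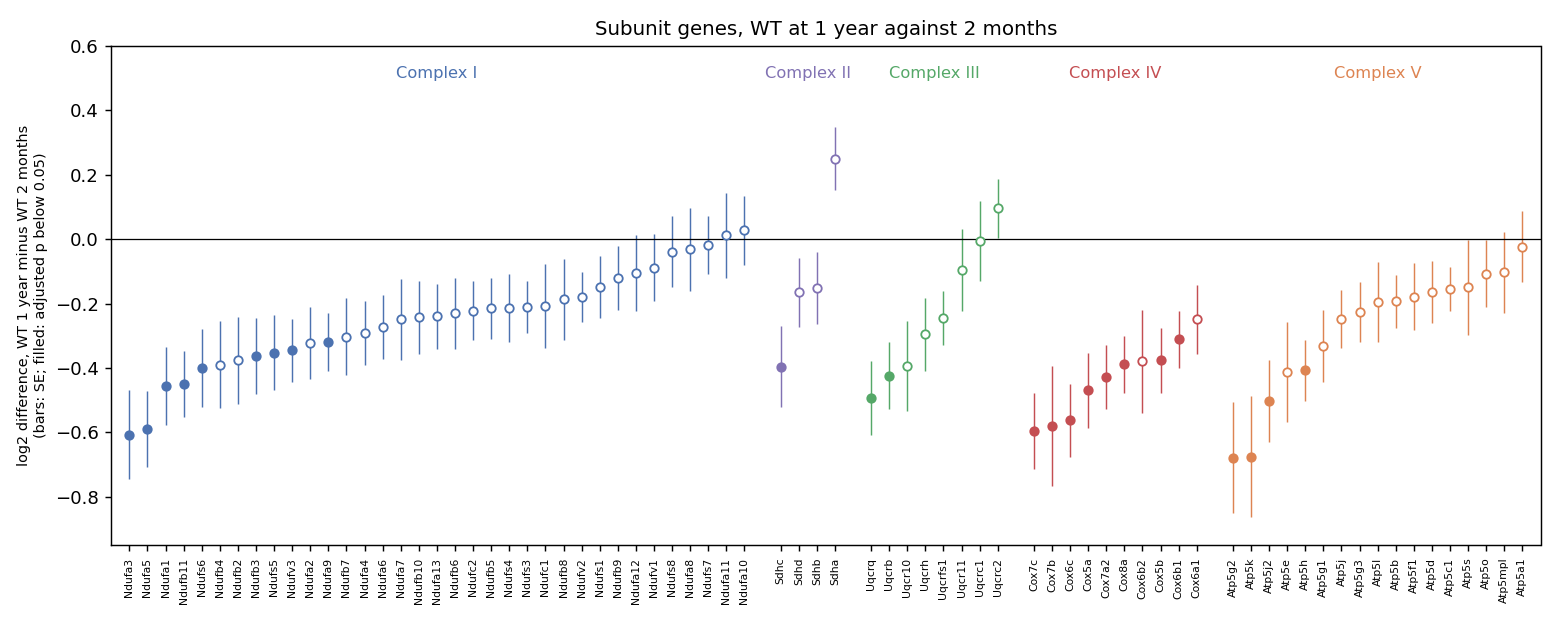
Log2 difference of the subunit genes reported here between WT at 1 year and WT at 2 months (points), with its SE (bars), ordered within each complex; filled points passed an adjusted p of 0.05. All 10 complex IV genes lie below 0 and 8 are filled, while Sdha of complex II is the highest point at 0.25.

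Complex IV, cytochrome c oxidase, takes its catalytic core from mitochondrial DNA and its surrounding small subunits from the nucleus. Its 10 nuclear genes had a median log2 difference of -0.41, with a range from -0.60 to -0.25. Cox7c, a small membrane-spanning subunit, was at 2666, 2581, 2081 and 2931 normalized counts in WT libraries at 2 months and at 1882, 1924, 1357, 1689 and 1633 at 1 year. The age groups did not overlap. Cox7c fell by 0.60 ± 0.12 (SE) on the log2 scale (limma, adjusted p = 0.00116). Cox6c, another small subunit, was at 2973, 3020.4, 2678 and 3432 normalized counts at 2 months and at 2298, 2303, 1895, 2017 and 1744 at 1 year. It fell by 0.56 ± 0.11 (SE) with no overlap (limma, adjusted p = 0.00142).

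Other complex IV genes moved in the same direction. Cox8a fell from 6960 ± 288 (SD, n = 4) to 5338 ± 590 normalized counts (SD, n = 5), a log2 difference of -0.39 ± 0.09 (SE). Cox5a (-0.47), Cox5b (-0.38), Cox6b1 (-0.31), Cox7a2 (-0.43) and Cox7b (-0.58) also passed. Cox5a and Cox5b bind the core subunits from the matrix side, and Cox6b1 faces the intermembrane space. Cox6a1 (-0.25, limma, adjusted p = 0.149) and Cox6b2, the paralog of Cox6b1 known from testis (-0.38, adjusted p = 0.137), did not pass, although Cox6a1 was lower in every 1-year library.

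Complex I, which oxidizes NADH, showed calls among its accessory subunits. The 29 accessory genes had a median log2 difference of -0.27 and 9 of them passed, whereas none of the 7 catalytic core genes did, with differences from -0.21 to -0.02. Ndufa5, an accessory subunit of the matrix arm, was at 1132, 1310.4, 1040.1 and 1227 normalized counts at 2 months and at 897, 809, 661, 812 and 738 at 1 year. It fell by 0.59 ± 0.12 (SE) with no overlap (limma, adjusted p = 0.0011). Ndufa3, a small membrane-arm subunit, was at 2202, 2029, 1735 and 2830.1 normalized counts at 2 months and at 1531, 1496, 1248, 1543 and 1310.4 at 1 year. It too had no overlap and fell by 0.61 ± 0.14 (SE) (limma, adjusted p = 0.00401). The remaining called genes were Ndufa1, Ndufa9, Ndufb3, Ndufb11, Ndufs5, Ndufs6 and Ndufv3, with log2 differences between -0.46 and -0.32.

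Core subunits gave smaller values. Ndufv1, which holds the NADH site, was at 5315, 5647, 5685 and 4237 normalized counts at 2 months and at 4294, 5291, 4925, 5159 and 4785 at 1 year, and the groups overlapped. Its log2 difference was -0.09 ± 0.11 (SE). Ndufs1, the largest iron-sulfur subunit, was at -0.15 ± 0.10 (SE). Ndufa4, named for complex I but now assigned to complex IV, was counted here by its name among the accessory genes of complex I. It was at -0.29 ± 0.10 and did not pass (limma, adjusted p = 0.0578).

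Complex II links the citric acid cycle to the chain, and its 4 genes did not move together. Sdhc, which anchors the enzyme in the membrane, fell from 2717 ± 342 (SD, n = 4) to 2084 ± 419 normalized counts (SD, n = 5), by 0.40 ± 0.13 (SE) on the log2 scale (limma, adjusted p = 0.0403). Its age groups overlapped in 1 library of 1 year at 2739 normalized counts. Sdha was at 17169.8, 17474, 18089.8 and 16823 normalized counts at 2 months and at 18136, 21072, 22817, 20848 and 20735 at 1 year. The 1-year libraries were all above, by 0.25 ± 0.10 (SE), but the difference did not pass (limma, adjusted p = 0.106). Sdha was called higher with quantile normalization (limma, adjusted p = 0.049), with only the groups compared (0.0421), with array weights (0.0446) and with the cell cycle covariate (0.0012). The iron-sulfur subunit Sdhb was at -0.15 ± 0.11 and the second anchor Sdhd at -0.17 ± 0.11, neither of them past the threshold.

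Complex III passes electrons to cytochrome c, and calls fell among its small subunits. Uqcrq, a small subunit near the ubiquinone site, was at 1843, 2340.5, 2158 and 2253 normalized counts at 2 months and at 1460.2, 1799, 1427, 1588 and 1360.5 at 1 year. It fell by 0.49 ± 0.11 (SE) with no overlap (limma, adjusted p = 0.00481). Uqcrb fell by 0.42 ± 0.10 (SE). The core protein genes Uqcrc1 (-0.01 ± 0.12) and Uqcrc2 (0.10 ± 0.09) did not pass. Uqcrc1 had a mean of 13944 ± 559.5 normalized counts in the 4 young libraries and 13941 ± 1491 in the 5 middle-aged ones (SD). Uqcrfs1, the Rieske iron-sulfur protein, was lower in every 1-year library at -0.25 ± 0.08 (limma, adjusted p = 0.0568), and Uqcr11 was at -0.10 ± 0.13.

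In complex V the calls lay in the membrane part and the peripheral stalk. Of the 3 genes that encode the c subunit of the proton-driven ring, Atp5g2 was at 4543, 3712, 3224 and 4625 normalized counts at 2 months and at 3965, 2696, 1578, 2608 and 2166 at 1 year. It fell by 0.68 ± 0.17 (SE) (limma, adjusted p = 0.0101), with 1 library of 1 year inside the range of 2 months. The other two c genes did not pass, at -0.33 ± 0.11 for Atp5g1 (limma, adjusted p = 0.0527) and -0.23 ± 0.09 for Atp5g3. Atp5k, the e subunit, fell by 0.68 ± 0.19 (SE), Atp5j2, the f subunit, by 0.50 ± 0.13 and Atp5h, the d subunit of the stalk, by 0.41 ± 0.09. None of the 5 genes of the catalytic head and central stalk passed, with Atp5e at -0.41 ± 0.16 (limma, adjusted p = 0.0915), Atp5a1 at -0.02 ± 0.11, Atp5b at -0.19 ± 0.08, Atp5c1 at -0.15 ± 0.07 and Atp5d at -0.16 ± 0.10. Atp5b was nonetheless lower in every 1-year library. The c genes encode the same mature protein and many subunit genes have processed pseudogenes, so reads shared between copies make single values less certain.

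**Figure D3:**
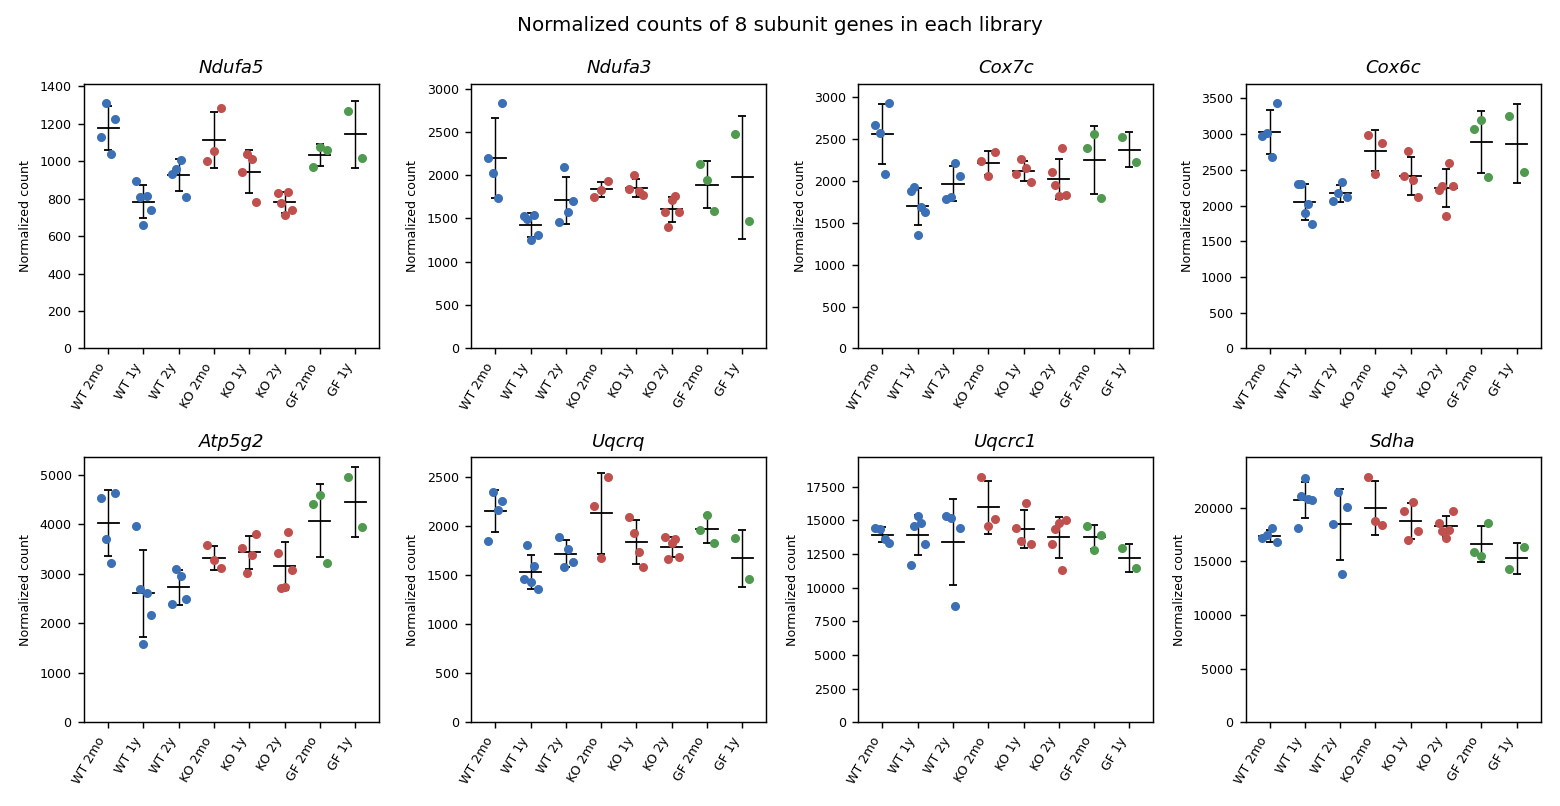
Normalized counts of 8 subunit genes (vertical axes start at 0, 1 point per library) in the 8 groups, with the group mean (line) and SD (bars). Ndufa5, Cox7c and Cox6c are lower in all 5 WT libraries of 1 year than in all 4 of 2 months, whereas Sdha is higher in all 5, and Uqcrc1 has a low WT library of 2 years at 8661.

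The number of members that passed in WT mice at 1 year depended on the 2-month libraries. Without the 2 WT libraries of 2 months with high Mpo, 3 members passed, Cox6c, Cox7c and Cox8a, and the median was -0.20. With those 2 libraries left out, 21 members were lower in every 1-year library, against 12.5% of all genes. With the mean level of the primary granule markers as a covariate, 12 passed. Leaving out WT 2-month replicate 4 left 14 calls and replicate 2 left 16, both of them high in Mpo, and leaving out replicate 3 gave 34. Leaving libraries out leaves fewer of them for every gene, and the share of all genes called in these fits is not given here. The sum of the 6 primary granule markers ranged from 7323 to 116699 normalized counts at 2 months and from 13399 to 16330 at 1 year, and that of 9 mature neutrophil markers from 5008 to 36296 and from 40.2 to 1772. In WT mice at 1 year 5 of the neutrophil markers were lower and 1 of the 6 granule markers was higher. The mean log2 level of the granule markers was nonetheless 9.97 at 2 months and 6.76 at 1 year. No marker of either list was at 0 in all WT libraries of either age.

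Proliferation markers also moved with the WT comparison. Of 16 cell cycle markers, 11 were lower at 1 year, and their summed level was 85200.2 to 95615 normalized counts at 2 months and 55529 to 67321 at 1 year. With their mean level as a covariate, 17 members were lower and Sdha was higher. The sum of the 12 HSC markers was 102752 to 105019 at 2 months and 128618 to 135285 at 1 year, with 7 of 12 higher. The 10 erythroid markers summed to 53875 to 58290.4 and 50622 to 66807 normalized counts, with 4 lower and 1 higher. The summed ranges were 631 to 24750.0 and 318 to 807 for the 6 monocyte and macrophage markers (1 lower), and 163 to 14933 and 99.8 to 400.2 for the 6 mast and basophil markers (0 called). The part of these cells in the result was not tested.

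Transcript length moved with the members' differences. The 44 members below 1 kb had a median log2 difference of -0.34 in WT mice at 1 year, with 19 lower, the 24 of 1 to 2 kb had -0.18 with 4 lower, and the 5 of 2 to 4 kb had -0.02 with 1 lower. The 2 members above 4 kb went the other way, with Ndufb2 at -0.38 and Atp5g1 at -0.33, neither past the threshold. Among other protein-coding genes, the 966 below 1 kb had a median of -0.16 with 13.9% lower, and the 6210 of 2 to 4 kb had 0.05 with 3.99% lower. Across the 75 members, Spearman's rho between length and difference was 0.42, as a description over genes of the same libraries. Over 15270 protein-coding genes it was 0.07. Complex IV had the lowest median length, at 632 bp against 892 bp for complex I. When, as chosen after seeing these values, every gene was centred on the median of genes of similar length, 18 members passed, 15 of them among the 24, and the median became -0.18. Cox7c was then at -0.44 ± 0.10 (SE), Ndufa5 at -0.45 ± 0.10 and Uqcrq at -0.51 ± 0.11. Cox8a (limma, adjusted p = 0.0688), Cox5b, Cox6b1, Cox7b, Uqcrb, Ndufa1, Ndufb3, Ndufs5 and Ndufs6 no longer passed in that fit. Genes that passed only there were Ndufv2 of the complex I core (-0.20 ± 0.06, limma, adjusted p = 0.0428) and Atp5b (-0.22 ± 0.07, adjusted p = 0.0331). The c gene Atp5g1 also passed only there (-0.38 ± 0.12, limma, adjusted p = 0.0482).

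**Figure D4:**
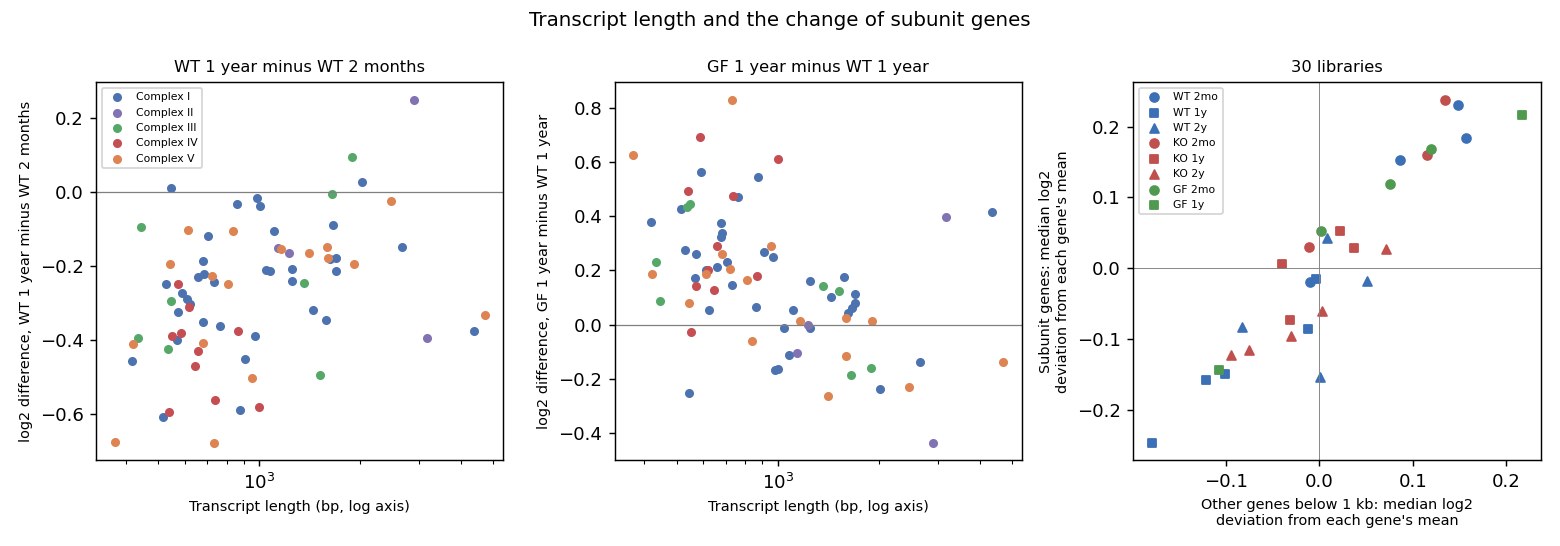
Left and centre: log2 difference of each subunit gene against transcript length (log axis) for WT at 1 year minus WT at 2 months and for germ-free minus WT at 1 year. Right: per library, the median log2 deviation of the subunit genes against that of the other protein-coding genes below 1 kb; the 2 germ-free libraries of 1 year lie at 0.22 and -0.14 on the vertical axis.

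Between 2 months and 2 years, 5 members fell in WT HSCs and none rose. Over all genes 1.63% were lower and 3.92% higher. The median of the members was -0.19, 71 of 75 differences were negative, and 14 members were lower in every 2-year library, against 3.82% of all genes. The 5 were Ndufa1 (-0.42 ± 0.13, SE), Ndufa9 (-0.35 ± 0.09), Cox5a (-0.49 ± 0.12), Cox6c (-0.48 ± 0.12) and Atp5b (-0.29 ± 0.09). Cox6c was at 2058, 2170.0, 2332 and 2119 normalized counts at 2 years, all below the 2-month libraries. Cox7c was at 1781, 1808, 2217 and 2064, which overlapped the young group, and its difference of -0.38 ± 0.13 did not pass (limma, adjusted p = 0.0758). Atp5g2 was lower in every 2-year library at -0.55 ± 0.18 without passing (limma, adjusted p = 0.0731).

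The 2-year calls rested on few libraries. Replicate 3 of WT at 2 years was low in several abundant subunits: Uqcrc1 was at 8661 normalized counts there and at 14475 to 15355 in the other three, and Atp5b at 25892 against 32567 to 32732. Without it 1 member passed, without WT 2-month replicate 4 none did, without WT 2-month replicate 2 there was 1, and without replicate 3 of 2 months there were 9. Without the 2-month libraries of high Mpo none passed and the median was -0.12. Then 15 members were lower in every 2-year library, against 9.85% of all genes. WT 2-year replicates 1 and 4, also above 10000 for Mpo, were kept. Cell cycle markers summed to 52134 to 71746 normalized counts at 2 years, below all young libraries, with 6 of 16 lower. The HSC markers summed to 109430.5 to 129268, above them, with 4 of 12 higher, and the 6 B and plasma cell markers to 12169.7 to 42011 against 1290.3 to 10683, with none called. Their part in the result was not tested. Directly between 2 years and 1 year no member passed (limma; 2 at an unadjusted p below 0.05, both higher), beside 0.0118% of all genes, and the median was 0.08 with 58 of 75 positive.

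In libraries labelled IL1R1 KO, no member passed between 2 months and 1 year (limma; 9 at an unadjusted p below 0.05, all lower), beside 2.00% of all genes. The median was -0.14 and 70 of 75 differences were negative, and without the young libraries of high Mpo the median was -0.03. At 2 years 3 members (4%) were lower than at 2 months, a share near the 2.90% of all genes. They were Ndufa4, Ndufa5 and Ndufc2, each named for complex I. All lie among the 44 members below 1 kb, and 5.28% of other protein-coding genes below 1 kb were lower. The median was -0.22, 74 of 75 were negative, and 21 members were lower in every 2-year library, against 7.44% of all genes. Ndufa5 was at 1002, 1055 and 1284 normalized counts at 2 months and at 831, 779, 713, 838 and 741 at 2 years, and fell by 0.51 ± 0.13 (SE) (limma, adjusted p = 0.0114). Ndufa4 was at 4319, 4394 and 4264 normalized counts at 2 months and at 3445, 3038, 3136, 3622 and 3169 at 2 years. It fell by 0.40 ± 0.11 (SE) with no overlap (limma, adjusted p = 0.0184). Ndufc2, a membrane-arm accessory subunit, fell by 0.36 ± 0.10 (limma, adjusted p = 0.023).

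Cox7c and Atp5g2, among the largest falls in WT mice, did not pass here. Cox7c was at 2242, 2067 and 2350.4 normalized counts at 2 months, at 2083, 2269, 2158 and 1986 at 1 year and at 2111, 1959, 1817, 2395 and 1831 at 2 years. All 3 ages overlapped, with differences of -0.06 ± 0.14 (SE) at 1 year and -0.14 ± 0.13 at 2 years. Atp5g2 was at 0.04 ± 0.20 and -0.09 ± 0.19. Between 2 years and 1 year no member passed (limma; 2 at an unadjusted p below 0.05, both lower), beside 0.177% of all genes. Without IL1R1 KO 2-month replicates 1 and 3, which are high in Mpo, none passed at 2 years and the median was -0.09, with 26 members lower in every 2-year library, against 23.2% of all genes. Leaving out replicate 1 or replicate 3 alone left 1 call each, and leaving out 2-month replicate 2 or 2-year replicate 4 gave 5 each. Cell cycle markers summed to 80690.0 to 125846 normalized counts at 2 months and 57886 to 76418 at 2 years without overlap, with 9 of 16 lower. Of the HSC markers 2 of 12 were higher, of the erythroid markers 2 of 10 lower, and of the primary granule markers 1 of 6 higher. The mean log2 level of the granule markers was nonetheless 10.21 at 2 months and 8.12 at 2 years. The share of all genes called higher is not given here for this comparison. The part of these markers in the result was not tested.

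**Figure D5:**
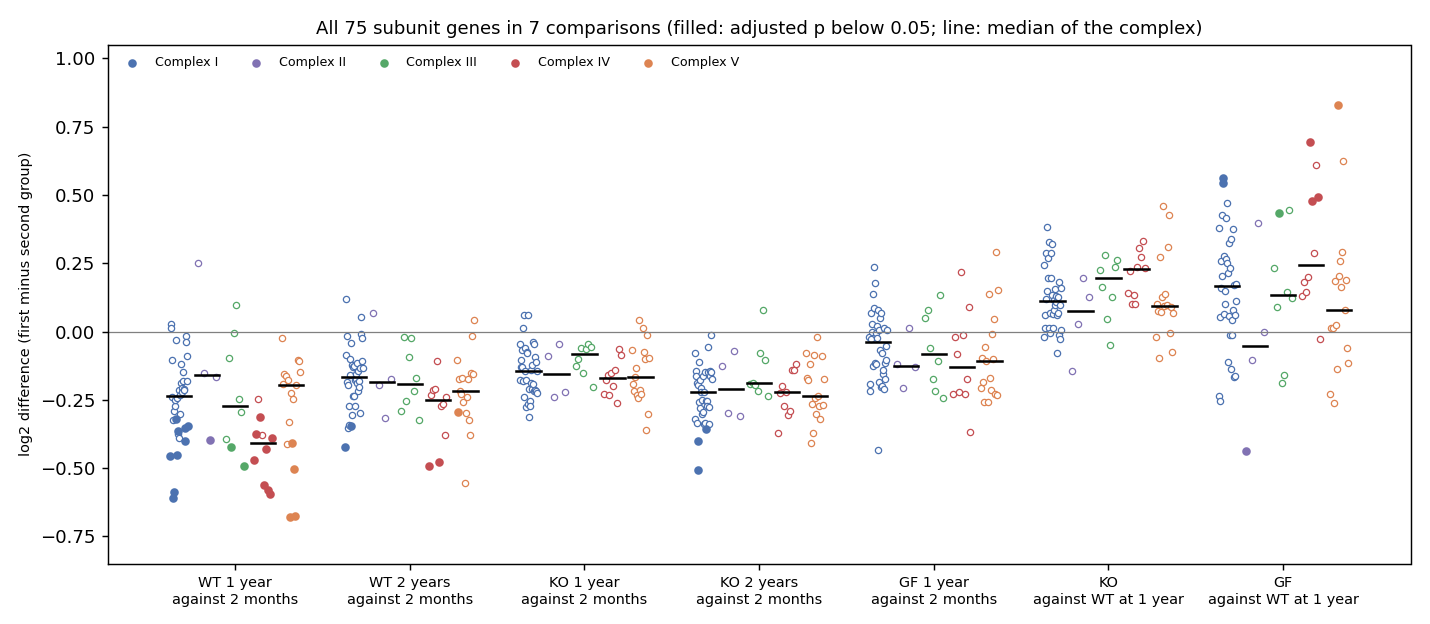
Log2 difference of all 75 subunit genes in 7 comparisons (horizontal axis), by complex (colour), with the median of each complex as a line and genes past an adjusted p of 0.05 filled. Age comparisons lie mostly below 0, with 71 of 75 negative in WT at 1 year, and both 1-year comparisons with WT lie mostly above 0, with 64 and 56 of 75 positive.

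Whether the age change differed between the kinds of mice was tested directly. The change to 1 year in IL1R1 KO minus that in WT passed in no member (limma; 10 higher and 1 lower at an unadjusted p below 0.05), beside 0.0354% of all genes, with a median of 0.09. To 2 years the median was -0.04 and none passed (limma; 1 at an unadjusted p below 0.05), beside 0.395% of all genes. For germ-free against WT to 1 year the median was 0.19 with 60 of 75 positive, and again none passed (limma; 14 higher and 1 lower at an unadjusted p below 0.05), beside 0% of all genes. Without the libraries of high Mpo the 3 medians were 0.16, 0.02 and 0.12, and none passed.

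At matched ages, no member passed between IL1R1 KO and WT libraries. At 2 months the median was 0.01, or -0.04 without the libraries of high Mpo (limma; 0 at an unadjusted p below 0.05), beside 0.407% of all genes called. At 1 year it was 0.12 with 64 of 75 positive (limma; 17 at an unadjusted p below 0.05, all higher), beside 1.30% of all genes. The smallest adjusted p at 1 year was that of Cox7a2, at 0.145 for a difference of 0.31 ± 0.10 (SE). Cox7a2 was at 1855, 1953, 1746, 1827 and 1542 normalized counts in WT and at 2226, 2430.1, 2188 and 1984 in IL1R1 KO, with no overlap. It passed when genes were centred by length (0.28 ± 0.07, limma, adjusted p = 0.048). At 2 years the median was -0.00 (limma; 2 higher and 1 lower at an unadjusted p below 0.05), beside 1.42% of all genes.

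In germ-free HSCs 52 of 75 members had negative differences with age. Between 2 months and 1 year no member passed (limma; 2 at an unadjusted p below 0.05, both lower), beside 2.10% of all genes, and the median was -0.10. The 2 libraries of 1 year disagreed, with mean log2 levels over all members of 11.64 and 11.30. Replicate 1 also had the highest median log2 deviation of other genes below 1 kb among all libraries, at 0.22, and replicate 2 was at -0.11. Without replicate 1 the median became -0.26 and 1 member passed, and without replicate 2 it turned to 0.08 with none. Without the young germ-free libraries of high Mpo it was -0.07.

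Against WT at 1 year, 7 members were higher and 1 was lower in germ-free mice, beside 1.83% and 3.13% of all genes. The 1-year WT libraries are the same as in the WT age comparison. Higher were Ndufa5 (0.54 ± 0.15, SE), Ndufa6 (0.56 ± 0.12), Uqcrb (0.43 ± 0.13), Cox6b2 (0.69 ± 0.20), Cox6c (0.48 ± 0.14), Cox7c (0.49 ± 0.15) and Atp5g2 (0.83 ± 0.22). Lower was Sdha, at 14271 and 16332 normalized counts against 18136 to 22817 in WT (-0.44 ± 0.12, limma, adjusted p = 0.0357). Ndufa6, an accessory subunit, was at 2954 and 2340.2 against 1973, 1805, 1777, 1803 and 1559.9 (limma, adjusted p = 0.0089). In 10 of 75 members both germ-free libraries were above all WT libraries, a share near the 13.2% of all genes. The HSC markers summed to 103077 to 115728 normalized counts in germ-free mice and 128618 to 135285 in WT, with 3 of 12 lower, and the mature neutrophil markers to 2608 to 4079 against 40.2 to 1772, with none called. Of the erythroid markers 5 of 10 were higher. The part of these cells in the result was not tested.

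That comparison depended on 1 library at a time. Without germ-free replicate 1 1 member was called, which was lower and was not Sdha (-0.34, limma, adjusted p = 0.343), and the median was 0.00, and without replicate 2 there were 21 calls with a median of 0.35. Without WT 1-year replicate 3 or replicate 5 there was 1 call each, and 3 without replicate 4. Centred by length, Atp5g2 alone passed (0.70 ± 0.20, SE) and the median was 0.05. Spearman's rho between length and difference over the 75 members was -0.52, beside 0.05 over 15270 protein-coding genes. At 2 months no member passed between germ-free and WT libraries (limma; 1 at an unadjusted p below 0.05), beside 0.601% of all genes, with a median of -0.05, or 0.05 without the libraries of high Mpo.

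Related genes were counted from lists of the pathway chosen by function. In WT mice at 1 year 4.61% of all genes were lower and 6.12% higher. Of 8 tested subunits and partners whose names fall outside the pattern, 5 were lower in that comparison: Cycs, the electron carrier cytochrome c (-0.53 ± 0.16, SE), Usmg5, a small ATP synthase subunit (-0.62 ± 0.14), Atpif1, the ATP synthase inhibitor (-0.29 ± 0.07), Cox4i1 (-0.23 ± 0.08) and Ndufab1 (-0.32 ± 0.10). Of 44 assembly factors tested, 3 were lower, Uqcc2, Cox14 and Cox17, and 1 was higher, Tmem126b (0.56 ± 0.14). Their median was -0.04. The share that was lower was near that of all genes, and the share that was higher was below it. Without the libraries of high Mpo, 1 of the 8 and none of the 44 passed (limma), with medians of -0.33 and 0.01. None of 13 citric acid cycle genes and none of 15 regulators of mitochondrial biogenesis passed (limma; 2 of the former lower at an unadjusted p below 0.05 and 0 of the latter), with medians of -0.02 and 0.08.

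Glycolysis genes, the other main route to ATP, had a different pattern of calls. In WT mice at 1 year 3 of 16 were higher, Pfkp (0.60 ± 0.13, SE), Ldha (0.58 ± 0.11) and Pkm (0.36 ± 0.08), and none was lower, beside 6.12% of all genes higher. Without the libraries of high Mpo 3 were also higher. In germ-free against WT mice at 1 year 10 of the 16 were lower, beside 3.13% of all genes, among them Eno1 (-0.70 ± 0.14) and Pkm (-0.69 ± 0.10), with a median of -0.50. Without germ-free replicate 1 there was 1 call and without replicate 2 there were 6, with medians of -0.52 and -0.47. The 13 subunits of the mitochondrial genome gave no call in WT mice at 1 year (limma; median -0.31, 2 lower at an unadjusted p below 0.05). In IL1R1 KO at 2 years 12 of the 13 were lower than at 2 months, beside 2.90% of all genes, with a median of -0.91. Their mean log2 level spread from 14.75 to 16.05 in the young IL1R1 KO libraries and from 14.18 to 14.43 at 2 years. Without 2-month replicate 3 the count was 4 and the median -0.56, and without both libraries of high Mpo none passed (limma) and the median was -0.36.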

How the data were processed

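RNA was measured by Smart-seq2 with single-end, unstranded reads. The deposited table holds a signal per gene and library, the authors' normalized counts. The submitters' processing notes name FastQC 0.11.9, cutadapt 2.10, Salmon 1.2.0.0, DESeq2 1.26.0 and GRCm38. Neither the step from transcripts to genes nor the sort markers were stated there or in the labels.

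Values were tested as log2(value + 1) with limma 3.58.1 in R 4.3.3, with 8 group means over 30 libraries, trend and robust options, and genes at 10 or more in at least 3 libraries (16958 genes). Tests were two-sided, with Benjamini-Hochberg adjustment over all genes and a threshold of 0.05. Fold changes of low genes are understated by the pseudocount. The fit was tested on simulated data. Symbols, positions and lengths came from GENCODE M21, matched for 35422 of 35727 identifiers.

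Members and lists were chosen with earlier results of these data known. The text names, per complex, up to 3 called members with the largest difference, fixed members by role, the members with the highest and lowest mean, and members called against the main direction. Cox6b1, Cox7b, Uqcrc2, Atp5e, Atp5h and Ndufa4 were also named where that rule did not ask for them. The same holds for Ndufa9, Ndufb2, Ndufb3, Ndufb11, Ndufs5, Ndufs6, Ndufv2, Ndufv3 and, among the related genes, Cox4i1 and Ndufab1. All of these were named after their values were seen. Some single genes are not reported here by name. Centring by length, and the list results, counts without overlap and group order with libraries left out, were added after seeing the data. Equal replicate numbers did not pair libraries: over 88 pairs the correlation of deviations had a median of 0.01 and exceeded 0.1 in 5.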

Additional observations from a re-analysis of the deposited data

Results flagged for a closer look

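Single libraries stood apart from the rest of their group in 6 of 100 checks of gap against range, and chance flags about 1 in 20. The IL1R1 KO and germ-free groups of 2 months and the germ-free group of 1 year were too small to check. They held 3, 3 and 2 libraries. In WT at 2 years, replicate 3 was at 8661 normalized counts for Uqcrc1 (14475 to 15355 in the others), at 1393 for Cox5a (1909 to 1929) and at 25892 for Atp5b (32567 to 32732). Replicate 2 of that group had a complex IV mean log2 level of 11.20, with the others at 11.14 to 11.15. Ndufa9 was at 2495 in IL1R1 KO replicate 4 of 1 year (2973 to 3011 in the others) and at 2805 in replicate 3 of 2 years (3073 to 3160.3).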

How the results depend on the processing

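Counts of called members are given here by setting. The share of all genes called in each setting is not given, so the counts cannot be set beside it. In WT mice at 1 year (24), leaving out 1 library gave 14 to 34, the primary granule covariate 12 and the removal of high-Mpo libraries 3. In WT mice at 2 years (5), leaving out 1 library gave 0 to 9, no filter 3, quantile normalization 3, only the groups compared 0, array weights 1, the cell cycle covariate 2 and the removal of high-Mpo libraries 0. In IL1R1 KO at 2 years (3), leaving out 1 library gave 1 to 5, a minimum of 100 gave 5, only the groups compared 6, array weights 5 and the removal of high-Mpo libraries 0. In germ-free against WT mice at 1 year (8), leaving out 1 library gave 1 to 21, no filter 5, only the groups compared 2, array weights 2, the primary granule covariate 5 and length centring 1. Leaving out 1 library gave 0 to 1 in IL1R1 KO against WT at 1 year and in germ-free mice with age, where length centring gave 1 and 2. With the replicate number as a block (replicate block), germ-free against WT at 1 year had 2 calls, WT at 1 year 21, WT at 2 years 5 and IL1R1 KO at 2 years 2. No called value of a named member reversed its sign, and values near 0 that were not called were not followed in this way. The cause of these changes was not tested. Where a lone library was left in a group, its spread was taken from the other groups.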
